A study of Homo sapiens with 16 samples.

Results

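RPL14 and 9 further genes (NMU, BRI3BP, LRRC59, PLBD1, APLN, AMOT, CTSA, SRPX and ALPP) were read out of a count table of 26485 genes. They were chosen by their log2 fold change after transfection of an siRNA named siCAG, as genes whose RNA fell most, and leucine runs were named when the list was made, so their siCAG values describe that choice and carry no test here. The choice had no numerical threshold. In PC3 cells the 10 genes stood at ranks 2 to 28 of 15136 genes ordered from the lowest log2 fold change of siCAG against siNT1, and 18 other genes stood among those 28 and were not taken. In HeyA8 cells 8 of the 10 genes had enough reads to be fitted, and they stood at ranks 6 to 203 of 13872.

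The libraries came from PC3, a prostate cancer cell line, and HeyA8, an ovarian cancer cell line, both labelled wild type. In each line cells were mock-treated or transfected with the nontoxic control siNT1, with siGGGGGC (an siRNA named after its 6mer seed) or with siCAG, at 1 nM according to the labels, while the methods of the study state another dose. The siGGGGGC libraries carry another name, siMxy, in their titles and in the count table and were placed by the treatment label alone, on which every siGGGGGC value below rests. RNA was taken at 24 h and 48 h with 1 library each, so each condition has 2 libraries in a line that differ in time, and every SD includes the time difference. The methods of the study describe separate wells for the time points of RNA-seq, and no source used here names independent cultures on separate days, so p-values measure the spread between such wells. Between 27937092 and 29971612 reads were counted per PC3 library and between 29128446 and 31790209 per HeyA8 library. The siCAG libraries of HeyA8 cells differed more from each other than any other pair: the correlation of log2 counts between 24 h and 48 h was 0.90 there and 0.97 to 0.99 in the other 7 pairs.

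Markers of the tissues of origin were read in the mock libraries. In PC3 cells KLK3, which encodes prostate-specific antigen, had 0 reads in both, while the epithelial gene EPCAM had 421 and 539. In HeyA8 cells PAX8, a transcription factor of the Mullerian epithelium, had 4015 and 5623 reads, MUC16 had 1 and 0, and the ovarian marker WT1 had 461 and 488, beside 313 and 287 in PC3 cells. The epithelial gene CDH1 had 3 and 0 reads in HeyA8 cells, while the epithelial keratin genes KRT8 (18351 and 23519) and KRT18 (14584 and 22895) had more reads there than in PC3 cells (7254 and 7008, 8098 and 9782). Of the leukocyte genes, CD3E had 0 reads in all 4 mock libraries and PTPRC had 12 and 5 (PC3) and 2 and 0 (HeyA8). The endothelial gene PECAM1 had 136 and 159 reads in the PC3 libraries, 4 and 6 in those of HeyA8, and VWF, another endothelial gene, had 3 and 0 against 7 and 11.

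An siRNA is a short duplex of which one strand, the guide, is loaded into the RNA-induced silencing complex. Pairing along the whole guide lets Argonaute 2 cleave the mRNA, whereas pairing of the seed alone represses mRNAs in the way of a miRNA. CTG in an mRNA is the reverse complement of CAG, and a run of CTG units encodes leucine, alanine or cysteine according to its reading frame. Runs of leucine are common in the hydrophobic core of signal peptides, the leading segments that send proteins into the secretory pathway. The sequence of siCAG is not given in the sources used here.

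The coding sequences of the 10 genes are shown at their longest run of CTG units because most of them hold such a run. A run of at least 6 CTG units was present in 9 of the 10 coding sequences and in 0.453% of the 19005 coding sequences matched to the count table, and 7 of the 10 proteins held at least 7 leucines in a row, against 0.8% of all. The shares among the 10 genes follow from how the list was made and support nothing. The genes that fell as far did not all carry the run: of the other genes among the 28 lowest, 3 of 17 with a matched transcript had a run of at least 6 CTG units in PC3 cells, and 2 of 22 in HeyA8 cells. Each stretch is 30 bases of hg38 in the direction of the mRNA, 5′ to 3′, with the run of CTG units in capitals.
RPL14: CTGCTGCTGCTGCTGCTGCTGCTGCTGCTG
NMU: ccgctcCTGCTGCTGCTGCTGCTGctcgcc
BRI3BP: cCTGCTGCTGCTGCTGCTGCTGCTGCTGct
LRRC59: ctgaagCTGCTGCTGCTGCTGCTGctattt
PLBD1: gcttCTGCTGCTGCTGCTGCTGCTGccgct
AMOT: ccttCTGCTGCTGCTGCTGCTGCTGttcag
CTSA: ttcCTGCTGCTGCTGCTGCTGCTGCTGcta
SRPX: gcctCTGCTGCTGCTGCTGCTGCTGcgcgt
ALPP: catgCTGCTGCTGCTGCTGCTGCTGggcct
APLN, coding sequence: gtgcaggcgctcCTGCTGctctggctctcc
APLN, 3′ UTR: aacgCTGCTGCTGCTGCTGCTGCTGcttaa

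The stretch of RPL14 holds 10 CTG units and lies at chr3:40462030-40462059 on the plus strand (hg38), in exon 6 of 6. There the units are read in the alanine frame and form codons 150 to 158, inside a run of 10 alanines, so the name leucine-run gene does not apply to RPL14. AMOT is also read in the alanine frame: the stretch with its 7 units lies at chrX:112779244-112779273 on the minus strand, in exon 13 of 14, over codons 963 to 968.

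The 6 genes with a leucine run near the start of the protein were NMU (chr4:55636103-55636132, minus strand, codons 23 to 28), BRI3BP (chr12:124993835-124993864, plus strand, codons 16 to 24) and PLBD1 (chr12:14567617-14567646, minus strand, codons 19 to 25), together with CTSA (chr20:45891596-45891625, plus strand, codons 11 to 18), SRPX (chrX:38220719-38220748, minus strand, codons 17 to 23) and ALPP (chr2:232378817-232378846, plus strand, codons 7 to 13). LRRC59 carries its 6 units near the end of the protein, at codons 250 to 255 (chr17:50383141-50383170, minus strand, exon 7 of 7). APLN stands apart, since the coding stretch at chrX:129654583-129654612 on the minus strand has only 2 CTG units and 4 leucines in a row. The 3′ UTR of APLN instead holds 7 units, in the stretch at chrX:129646197-129646226 in exon 3 of 3, and a 3′ UTR with at least 7 units was found for 0.0368% of the transcripts.

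RPL14, which encodes a protein of the large ribosomal subunit, was the most abundant of the 10 genes per kb of exon in every library without siCAG, and it had the lowest log2 fold change of them in both lines. In PC3 cells its level in CPM (reads per 1000000 reads of the TMM-scaled library) was 571 and 566 in the mock libraries at 24 h and 48 h, 565 and 611 after siNT1, 624 and 520 after siGGGGGC, and 19.8 and 14.1 after siCAG. HeyA8 cells had 778 and 841 CPM in mock, 845 and 847 after siNT1, 753 and 642 after siGGGGGC, and 14.6 and 7.43 after siCAG. The siCAG libraries lay far below the other 6 in each line, which themselves stayed within a narrow range. Relative to siNT1, siCAG left 3.5% of RPL14 at 24 h and 2.3% at 48 h in PC3 cells. In HeyA8 cells the shares were 1.73% and 0.876%. The log2 fold change of siCAG against siNT1 was -5.13 ± 0.207 (SE, 2 libraries per condition) in PC3 cells and -6.31 ± 0.363 in HeyA8 cells, and against mock it was -5.08 and -6.25. Bulk RNA cannot tell fewer RPL14 transcripts in every cell from a loss in part of the cells.

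The other cytosolic ribosomal proteins, which assemble with RPL14 into the ribosome, were read beside it. Per kb of exon, RPL14 reached 318 CPM after siNT1 at 24 h in PC3 cells, near the median of 335 over the other 78 ribosomal protein genes, and 36 of them lay below it. After siCAG at 24 h RPL14 stood at 11.1 CPM per kb, the median of the others at 349 and their lowest, RPL17, at 14.1, so that 0 of the 78 lay below RPL14. The same count was 0 in the other 3 siCAG libraries. Of the 78 genes, 0 passed the edgeR test downwards after siCAG in either line, beside 1.16% of all genes tested in PC3 cells and 4.93% in HeyA8 cells. At an unadjusted p under 0.05, 1 of them was lower in PC3 cells and 0 in HeyA8 cells, and DESeq2 called 0 lower in either line. Their log2 fold changes had a median of 0.23 in PC3 cells, from -0.34 for RPL12 to 0.54 for RPS7, and of 0.41 in HeyA8 cells, from -0.15 for RPL3 to 0.79 for RPL28. Upwards, 0 passed in PC3 cells, beside 0.0396% of all genes, and 1, RPS18, passed in HeyA8 cells, beside 2.88%. At an unadjusted p under 0.05, 6 of them were higher in PC3 cells and 27 in HeyA8 cells, and DESeq2 called 0 and 6 higher.

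**Figure D1:**
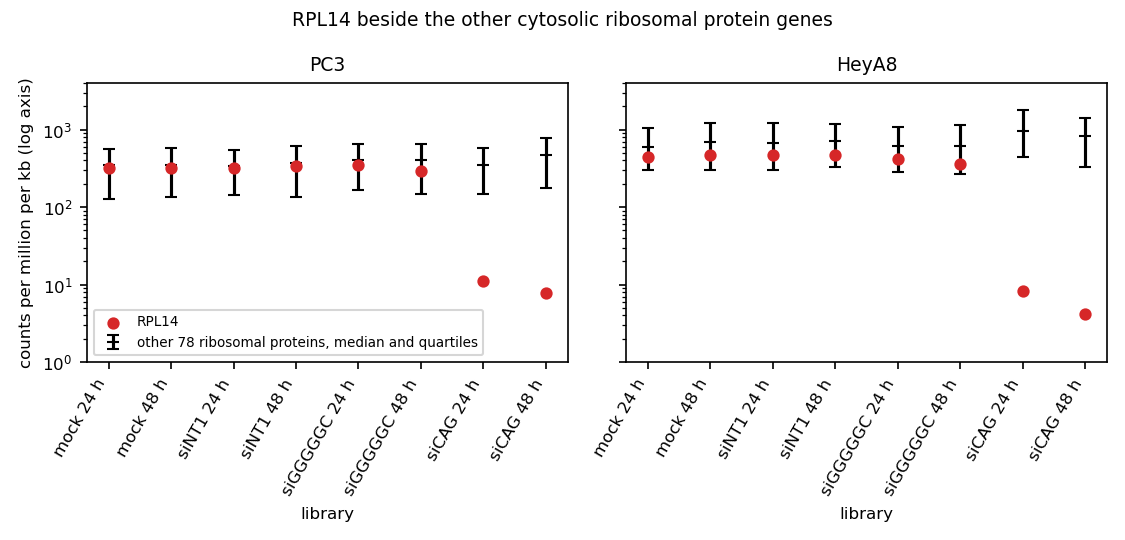
Level of RPL14 (red points) and of the other 78 cytosolic ribosomal protein genes (black bars, median and quartiles) in CPM per kb of exon, on a log axis, in each of the 8 libraries of PC3 and HeyA8 cells. RPL14 lies between the quartiles in the 6 libraries without siCAG and at 11.1 or lower in the siCAG libraries.

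LRRC59, a ribosome-binding protein of the endoplasmic reticulum (ER) membrane, was next to RPL14 in level per kb in every library without siCAG. In every siCAG library LRRC59 lay above RPL14. In PC3 cells it stood at 853 and 762 CPM in mock, 811 and 764 after siNT1, 978 and 850 after siGGGGGC, and 95.7 and 57.2 after siCAG. HeyA8 cells had LRRC59 at 430 and 431 CPM in mock, 432 and 465 after siNT1, 408 and 281 after siGGGGGC, and 28 and 13.2 after siCAG. The siCAG libraries were below all others, with log2 fold changes against siNT1 of -3.40 ± 0.201 (SE) in PC3 cells and -4.52 ± 0.37 in HeyA8 cells. At 48 h, 7.49% of the siNT1 level was left in PC3 cells and 2.84% in HeyA8 cells.

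CTSA encodes the lysosomal carboxypeptidase that protects beta-galactosidase and neuraminidase. Its level in PC3 cells was 280 and 274 CPM in mock, 275 and 336 after siNT1, 241 and 113 after siGGGGGC, and 36.4 and 37.9 after siCAG. In HeyA8 cells it was 144 and 146 CPM in mock, 171 and 176 after siNT1, 154 and 149 after siGGGGGC, and 24.9 and 22.3 after siCAG. CTSA kept 13.2% of its siNT1 level at 24 h and 11.3% at 48 h in PC3 cells, and of the genes fitted in both lines it kept the most at 48 h. The shares in HeyA8 cells were 14.6% and 12.7%. Its log2 fold changes were -3.05 ± 0.321 (SE) and -2.88 ± 0.218.

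PLBD1, a phospholipase B-like lysosomal protein, rested on few reads. In PC3 cells it had 26 and 43 reads in mock, 31 and 28 after siNT1, 44 and 79 after siGGGGGC, and 3 and 3 after siCAG. In HeyA8 cells it had 11 and 19 reads in mock, 19 and 15 after siNT1, 8 and 14 after siGGGGGC, and 1 and 1 after siCAG. With such counts the share of the siNT1 level left at 48 h in HeyA8 cells, 6.09%, has an exact 95% counting interval from 0.145% to 39.6%. These intervals cover counting error only. The count of the overlapping antisense gene PLBD1-AS1 was at most 9 reads in any library.

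BRI3BP, a membrane protein named for its binding to BRI3, held the longest leucine run of the 10 proteins with 11 leucines. In PC3 cells it stood at 15.3 and 12.3 CPM in mock, 16.2 and 18.4 after siNT1, 20.3 and 18 after siGGGGGC, and 1.68 and 1.1 after siCAG. HeyA8 cells had BRI3BP at 6.94 and 7.01 CPM in mock, 7.92 and 5.89 after siNT1, 7.73 and 6.83 after siGGGGGC, and 0.449 and 0.0324 after siCAG. The last value is a single read, for which the share of siNT1 left was 0.551% with an exact 95% counting interval from 0.0139% to 3.11%.

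NMU and APLN encode secreted peptide ligands, neuromedin U and apelin. In PC3 cells NMU had 250 and 302 reads in mock, 298 and 224 after siNT1, 297 and 299 after siGGGGGC, and 30 and 6 after siCAG. In HeyA8 cells it had 78 and 93 reads in mock, 123 and 74 after siNT1, 62 and 33 after siGGGGGC, and 4 and 0 after siCAG. Taking 3 reads as the limit that a count of 0 allows in that library, NMU at 48 h was at least 27.0-fold lower after siCAG than after siNT1 in HeyA8 cells.

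Apelin precursor RNA (APLN) also varied among the libraries without siCAG. In PC3 cells it stood at 32.9 and 42.3 CPM in mock, 19.1 and 39.0 after siNT1, 43.4 and 89.9 after siGGGGGC, and 3.22 and 2.54 after siCAG. In HeyA8 cells it stood at 10.4 and 9.24 CPM in mock, 11.6 and 10.7 after siNT1, 14.8 and 28.7 after siGGGGGC, and 0.289 and 0.0324 after siCAG. The highest library was siGGGGGC at 48 h in both lines, and both siCAG libraries were the lowest. The log2 fold changes of siCAG against siNT1 were -3.22 ± 0.349 (SE) in PC3 cells and -6.08 ± 0.711 in HeyA8 cells, where the siCAG libraries held 9 reads and 1 read.

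SRPX encodes a protein with sushi repeats, and AMOT encodes angiomotin, a junction scaffold that binds YAP1. SRPX in PC3 cells stood at 4.44 and 6.15 CPM in mock, 8.51 and 12.5 after siNT1, 10.4 and 15.0 after siGGGGGC, and 1.78 and 0.997 after siCAG. In HeyA8 cells SRPX stood at 23.3 and 21.5 CPM in mock, 24.6 and 27.9 after siNT1, 22.4 and 17.9 after siGGGGGC, and 1.6 and 1.69 after siCAG. In PC3 cells the mock libraries of SRPX thus lay between siCAG and siNT1, and its log2 fold change was -2.87 ± 0.358 (SE) against siNT1 but -1.89 ± 0.357 against mock.

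AMOT had 114 and 178 reads in the PC3 mock libraries, 83 and 97 after siNT1, 96 and 143 after siGGGGGC, and 14 and 7 after siCAG. In HeyA8 cells AMOT had 0 reads in all 8 libraries, so it says nothing about siCAG there.

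ALPP, placental alkaline phosphatase, was the exception among the 10 genes. In PC3 cells it had 8 reads and 1 read in mock, 105 and 59 after siNT1, 61 and 45 after siGGGGGC, and 5 and 4 after siCAG. The siCAG libraries therefore overlapped the mock libraries and lay below only the siNT1 and siGGGGGC libraries. The log2 fold change was -4.20 ± 0.535 (SE) against siNT1 and 0.04 ± 0.748 against mock. In HeyA8 cells 7 libraries had 0 reads and siGGGGGC at 48 h had 2. Its near-identical paralog ALPPL2 had at most 1 read in any library, but reads shared by the pair cannot be assigned with certainty.

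In PC3 cells both siCAG libraries lay below the other 6 libraries for 9 of the 10 genes, ALPP being the exception, and in HeyA8 cells they did so for 8 of the 8 genes fitted. Of all genes tested, 8.81% did so in PC3 cells and 18.9% in HeyA8 cells. These counts follow from the choice of the genes.

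**Figure D2:**
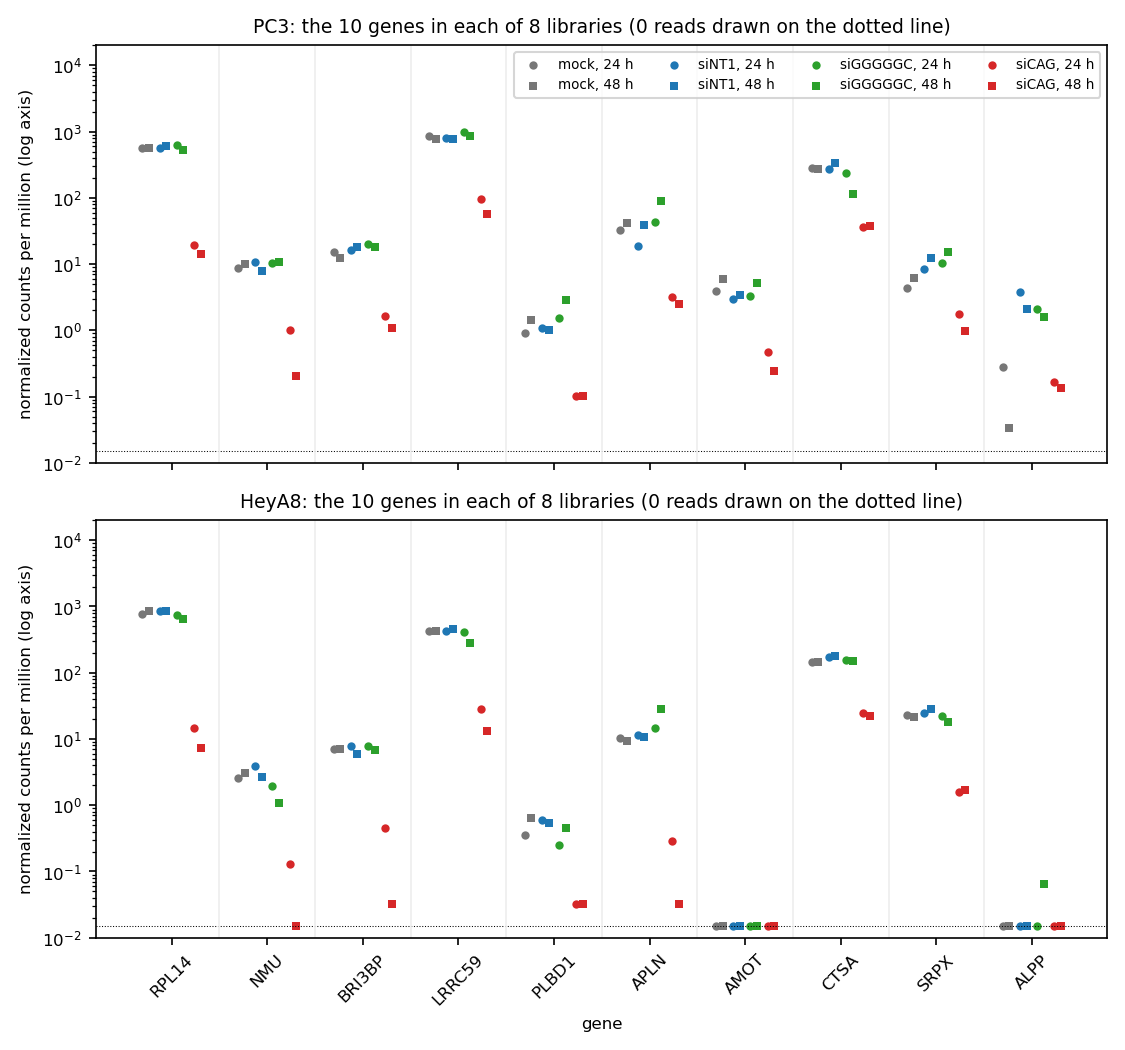
Normalized CPM (log axis) of the 10 genes in the 8 libraries of PC3 cells (top) and HeyA8 cells (bottom), with colours for the condition, circles for 24 h and squares for 48 h. The siCAG points lie below the others of their gene except for ALPP in PC3 cells, where the mock points are as low, and for AMOT and ALPP in HeyA8 cells, which had almost no reads.

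The ratio of siCAG to siNT1 was lower at 48 h than at 24 h for 8 of 10 genes in PC3 cells and 7 of 8 in HeyA8 cells, with 1 library per time point and no test. The share of all genes with this order was not counted. Among these genes the siCAG level itself was also lower at 48 h, except for CTSA in PC3 cells and SRPX in HeyA8 cells. CTSA had 36.4 and 37.9 CPM after siCAG, while siNT1 had 275 and 336. SRPX had 1.6 and 1.69 CPM, while siNT1 had 24.6 and 27.9. The median log2 ratio of the genes, with 0.5 reads added, was -3.17 at 24 h and -3.77 at 48 h in PC3 cells. It was -4.02 at 24 h and -5.98 at 48 h in HeyA8 cells. RPL14 had -4.83 and -5.44 in the first line and -5.85 and -6.83 in the second. PLBD1 and ALPP in PC3 cells, and PLBD1 in HeyA8 cells, did not follow this order. Each of these ratios rests on at most 5 siCAG reads, and so do some that followed it: at 48 h in HeyA8 cells NMU had 0 siCAG reads and BRI3BP and APLN had 1 each.

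**Figure D3:**
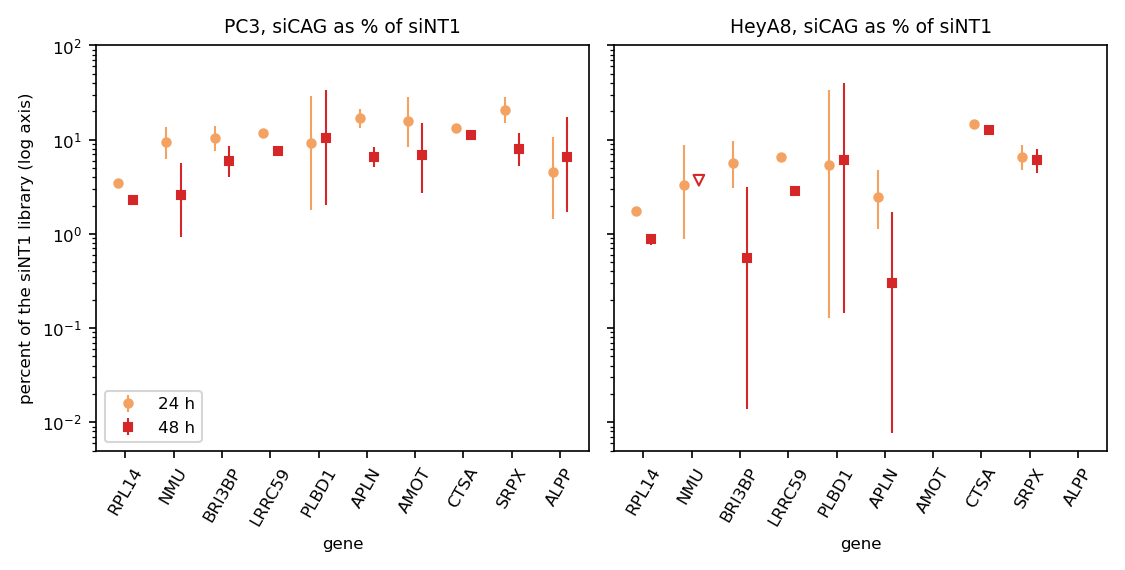
Share of the siNT1 level left after siCAG at 24 h (orange circles) and 48 h (red squares) for each gene, in percent on a log axis, with exact 95% counting intervals; the open triangle for NMU in HeyA8 cells marks the limit of 3.71% that 3 reads in place of a count of 0 give. RPL14 has the lowest share at both times in PC3 cells, and CTSA has the highest share at 48 h in both lines.

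CTG runs were then counted in all transcripts to see how the other genes with such runs stood in the same comparison, leaving out the 10 genes. In PC3 cells the median log2 fold change of siCAG against siNT1 was 0.02 for 3956 genes with at most 1 CTG unit in a row, -0.07 for 1398 genes with 3, -0.30 for 211 genes with 4, -0.78 for 58 genes with 5 and -1.68 for 30 genes with 6. In HeyA8 cells the corresponding medians were -0.11, 0.04, -0.36, -0.88 and -2.20. The 17 genes with at least 7 units in PC3 cells had a median of -1.72 and the 16 in HeyA8 cells one of -1.77. Both bins held under 20 genes, and the medians were not lower in both lines beyond 6 units. In PC3 cells this depends on leaving out the list, whose genes were chosen by their fall. With the list kept, the medians for 6 and for at least 7 units were -1.75 and -2.32 in PC3 cells. They were -2.23 and -2.16 in HeyA8 cells. The median over all genes tested was -0.01 in each line. Runs of CAG, the same triplet on the other strand, were counted likewise, and 114 genes with at least 6 CAG units in the coding sequence had a median of 0.00 in PC3 cells, and 113 had a median of 0.10 in HeyA8 cells.

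Of the genes outside the list with at least 6 CTG units, 25 of 47 passed the edgeR test downwards in PC3 cells and 29 of 45 in HeyA8 cells, beside 1.16% and 4.93% of all genes. These counts depended on single libraries. In PC3 cells they were 8 of 51 without siCAG at 48 h, 10 of 50 without siNT1 at 48 h and 17 of 51 without siNT1 at 24 h, where the share of all genes fell to 0.204%, 0.191% and 0.458%. In HeyA8 cells they were 3 of 47 without siNT1 at 24 h and 2 of 47 without siNT1 at 48 h, where 0.369% and 0.291% of all genes passed. Without the siGGGGGC libraries the counts were 29 of 46 in PC3 cells and 17 of 45 in HeyA8 cells, beside 2.0% and 1.54% of all genes. The medians over the group were -1.87 to -1.51 in PC3 cells and -2.12 to -1.77 in HeyA8 cells with 1 library left out.

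**Figure D4:**
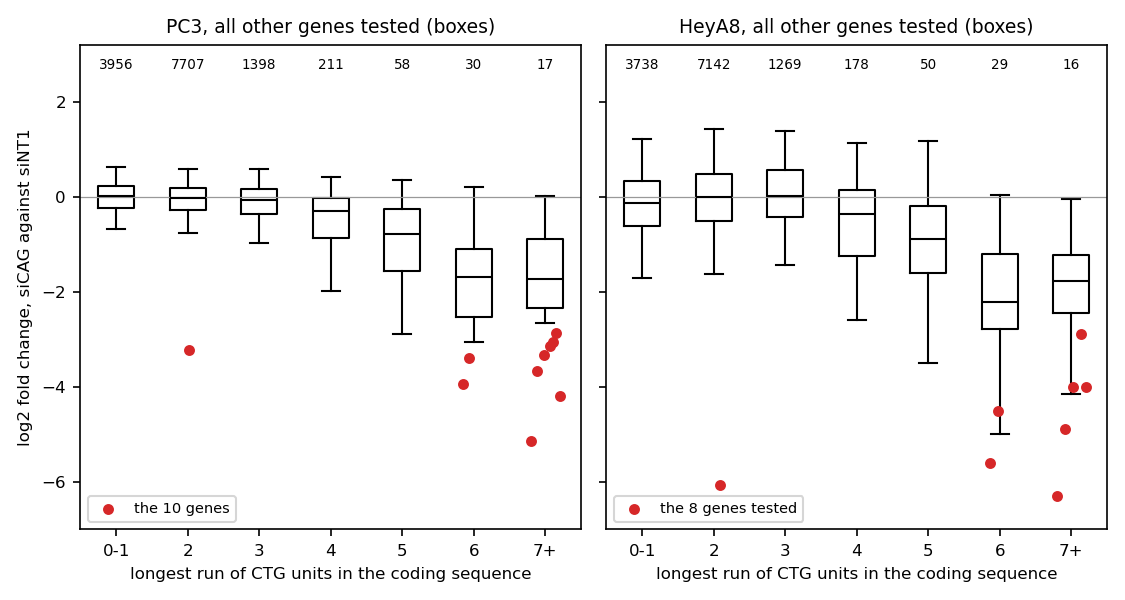
Log2 fold change of siCAG against siNT1 by the longest run of CTG units in the coding sequence, in PC3 and HeyA8 cells; boxes give median and quartiles of all other genes tested, whiskers the 5th and 95th percentiles, numbers the genes per box, and red points the genes of the list. The medians fall from 0.02 to -1.68 between 0 or 1 and 6 units in PC3 cells, and APLN is the red point at 2 units.

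The groups were also divided by reading frame, with no test between frames. Outside the list, 40 genes with at least 6 CTG units in the leucine frame had a median of -1.60 in PC3 cells and 5 in the alanine frame, the frame of RPL14 and AMOT, had one of -1.82. In HeyA8 cells the medians were -1.90 over 38 genes and -1.72 over 5 genes. The 2 genes in the cysteine frame had a median log2 fold change of -2.19 (PC3) and -2.76 (HeyA8). Runs of at least 6 CTG units in the 3′ UTR, the place of the APLN run, with fewer than 4 in the coding sequence, gave a median of -0.82 over 7 genes in PC3 cells and -0.21 over 5 genes in HeyA8 cells, and such runs in the 5′ UTR gave -1.16 and -1.56 over 10 genes in each line. The 5 alanine-frame genes were named after their values were seen. ZNF395 (-2.33, adjusted p = 0.00239 by edgeR's quasi-likelihood test), RBM23 (-2.16, adjusted p = 0.00239) and OTUD4, a deubiquitinase (-1.82, adjusted p = 0.0225), fell in PC3 cells, and TMCC1 had -0.87 with an adjusted p of 0.0785. In HeyA8 cells OTUD4 (-2.54, adjusted p = 0.00727), RBM23 (-2.27, adjusted p = 0.00796), ZNF395 (-1.72, adjusted p = 0.0191) and TMCC1 (-1.34, adjusted p = 0.0257) fell. MAP3K4, a kinase whose 11 CTG units are more than the 10 of RPL14, had -0.01 in PC3 cells with an adjusted p of 0.986 and -0.47 in HeyA8 cells with an adjusted p of 0.18.

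Leucine runs were read with and without CTG runs. Outside the list, 82 genes with at least 7 leucines in a row had a median log2 fold change of -0.82 in PC3 cells and 71 had one of -1.24 in HeyA8 cells. Where the longest CTG run anywhere in the coding sequence had at least 6 units the medians were -1.53 (23 genes) and -2.03 (22 genes), and where it had 3 to 5 they were -0.85 (48 genes) and -0.97 (41 genes). Where it had at most 2 units they were -0.08 (11 genes) and -0.15 (8 genes). In that last group 0 genes passed the edgeR test downwards in either line, 0 were lower at an unadjusted p under 0.05, and DESeq2 called 0 lower. With so few genes, and 1.16% and 4.93% of all genes called lower, these counts do not set the group apart.

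Among the 5 genes with the longest leucine runs that were tested in both lines, BRI3BP itself belongs to the list. LRP8, a lipoprotein receptor with 11 leucines and 11 CTG units, fell by 1.5 on the log2 scale in PC3 cells (adjusted p = 0.017, edgeR) and by 1.82 in HeyA8 cells (adjusted p = 0.0183). The semaphorin receptor gene PLXNA1, with 5 CTG units, fell as well (-1.59 in PC3 cells with adjusted p = 0.02, -1.58 in HeyA8 cells with adjusted p = 0.0337). SEMA4B, with 4 units, fell by 1.08 in PC3 cells (adjusted p = 0.0442, but -0.56 with adjusted p = 0.148 against mock) and had -1.24 in HeyA8 cells (adjusted p = 0.0917). BTN2A2, with 10 leucines and at most 2 CTG units in a row, had 0.28 in PC3 cells (adjusted p = 0.573) and rose by 1.14 in HeyA8 cells (adjusted p = 0.0382).

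Runs of other residues had medians near 0. Outside the list, at least 7 alanines in a row gave -0.02 over 198 genes in PC3 cells and -0.13 over 186 in HeyA8 cells. Glutamine gave 0.00 over 94 and 0.10 over 95, and serine gave -0.06 over 153 and 0.00 over 148. The longest alanine runs were those of SKIDA1, FBRS and HOXA13, which had 0.07, 0.26 and -0.36 in PC3 cells. Their values in HeyA8 cells were -0.15, 0.79 and -1.59, and the adjusted p-values (edgeR) over both lines ran from 0.103 to 0.949. The longest glutamine runs were those of TBP, MAML2 and EP400. TBP, the TATA-binding protein, had -0.50 in PC3 cells (adjusted p = 0.32) and fell by 1.00 in HeyA8 cells (adjusted p = 0.044), whereas MAML2 and EP400 had 0.07 and 0.12 in the first line and 1.22 and -0.15 in the second, with adjusted p-values from 0.084 to 0.913.

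The relatives of the 10 genes (paralogs, receptors and partners in complexes, 34 genes) were read in the same comparison. In PC3 cells 27 were tested and 0 passed the edgeR test in either direction, while at an unadjusted p under 0.05 there were 2 lower and 2 higher, and DESeq2 called PLBD2 lower and NEU1 higher. Of all genes, 1.16% passed downwards there and 0.0396% upwards. In HeyA8 cells 26 were tested, 0 passed downwards, beside 4.93% of all genes, and 4 passed upwards, beside 2.88%. At an unadjusted p under 0.05, 1 was lower and 10 were higher there, and DESeq2 called 0 lower and 7 higher. Counts of 0 among so few genes lie near the shares over all genes. The 4 were BRI3, the partner of BRI3BP (0.99, adjusted p = 0.0484), NEU1, the neuraminidase that CTSA protects (1.61, adjusted p = 0.0125), the cathepsin gene CTSB (1.06, adjusted p = 0.0434) and SRPX2, the paralog of SRPX (1.45, adjusted p = 0.0382). The median over the relatives was 0.04 in PC3 cells and 0.14 in HeyA8 cells.

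By family, the ribosomal proteins RPL13, RPL15, RPL6, RPL29 and RPL28 ranged from 0.15 to 0.40 in PC3 cells and from -0.03 to 0.79 in HeyA8 cells. For LRRC59, the ER genes SEC61A1, SEC61B, RRBP1 and KTN1 ranged from -0.72 to 0.02 and from -0.96 to 0.14. For AMOT, the Hippo pathway genes AMOTL1, AMOTL2, YAP1, WWTR1, LATS1, LATS2 and NF2 ranged from -0.38 to 0.36 and from -0.43 to 0.15. For CTSA, GLB1 had 0.15 and 0.62, CTSD 0.34 and 0.85, CTSL -0.03 and 0.10, CTSZ -0.00 and 0.34, and CTSH 0.01 and -0.40. PLBD2 had -1.10 in PC3 cells (adjusted p = 0.115) and 0.07 in HeyA8 cells. The receptors for the peptide ligands were barely counted: NMUR2 had 4 to 35 reads per PC3 library and 0 in all HeyA8 libraries, and APLNR at most 1 read in any library.

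The comparison of siGGGGGC with mock is another contrast than the one behind the choice, so the genes were tested there, although the siCAG and siNT1 libraries share in the filter, the scaling and the estimate of spread. In PC3 cells 9 of the 10 genes had a mean of at least 10 reads in both conditions. Of these, 1, SRPX, rose, beside 8.83% of all genes tested, and 0 fell, beside 12.3%. SRPX rose by 1.26 ± 0.32 on the log2 scale (SE, adjusted p = 0.0318, edgeR), with 5.3 ± 1.21 CPM in mock (SD, n = 2) and 12.7 ± 3.29 after siGGGGGC. ALPP went through the filter on low counts only because of the transfected libraries, so its values, 0.156 ± 0.173 CPM in mock and 1.87 ± 0.356 after siGGGGGC, stand without a test. Both siGGGGGC libraries were above both mock libraries for SRPX and ALPP. The share of all genes for which this holds was not counted, so the order supports nothing. Both genes were also higher after siNT1 than in mock, by 0.98 for SRPX and 4.24 for ALPP, values that share the mock libraries. Against siNT1 in place of mock the siGGGGGC change was 0.27 for SRPX, -0.60 for ALPP and 1.2 for APLN. These values carry no test here, because the siNT1 libraries entered the choice of the genes. Without the mock library at 48 h, 0 genes of the whole table passed, against 3200 with it. SRPX then had 1.39 (adjusted p = 0.205), and it also missed the threshold without mock at 24 h (1.12, adjusted p = 0.162) or without siGGGGGC at 48 h (1.03, adjusted p = 0.122).

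The other 8 genes tested did not pass in PC3 cells. RPL14 had 0.00 ± 0.173 (SE, adjusted p = 0.993), LRRC59 0.18 ± 0.182, NMU 0.16 ± 0.385 and AMOT -0.22 ± 0.317. CTSA had -0.68 ± 0.3 (adjusted p = 0.137), BRI3BP 0.48 ± 0.215 (adjusted p = 0.146), PLBD1 0.89 ± 0.372 (adjusted p = 0.122) and APLN 0.76 ± 0.305 (adjusted p = 0.11). At an unadjusted p under 0.05, 3 of the 9 were higher and 0 lower, and DESeq2 called SRPX alone of them. Fitted on the 4 mock and siGGGGGC libraries alone, SRPX kept its call (1.22, adjusted p = 0.00841), and APLN (0.71, adjusted p = 0.0313) and CTSA (-0.78, adjusted p = 0.023) passed as well. Without siGGGGGC at 24 h CTSA had -1.36 (adjusted p = 0.00195) and APLN 1.03 (adjusted p = 0.0438), whereas without siGGGGGC at 48 h CTSA had -0.20.

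In HeyA8 cells 0 of the 8 genes passed, beside 0.0% of all genes (0 of 13872 by edgeR, 1156 at an unadjusted p under 0.05, 221 by DESeq2). At an unadjusted p under 0.05, 0 of the 8 were lower or higher, and DESeq2 called 0 of them, giving PLBD1 no adjusted p. APLN had 1.15 ± 0.513 (SE, adjusted p = 0.62), NMU -0.99 ± 0.549 (adjusted p = 0.687), RPL14 -0.23 ± 0.287 (adjusted p = 0.894) and SRPX -0.15 ± 0.235 (adjusted p = 0.924). The common biological coefficient of variation of the fit was 28.2% in HeyA8 cells against 18% in PC3 cells. Genes outside the list with at least 6 CTG units had medians of 0.27 (PC3) and 0.10 (HeyA8) under siGGGGGC against mock, which join medians of 0.49 and 0.23 for 6 units with -0.35 and -0.11 for at least 7, and the medians of all genes were 0.03 and -0.01.

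**Figure D5:**
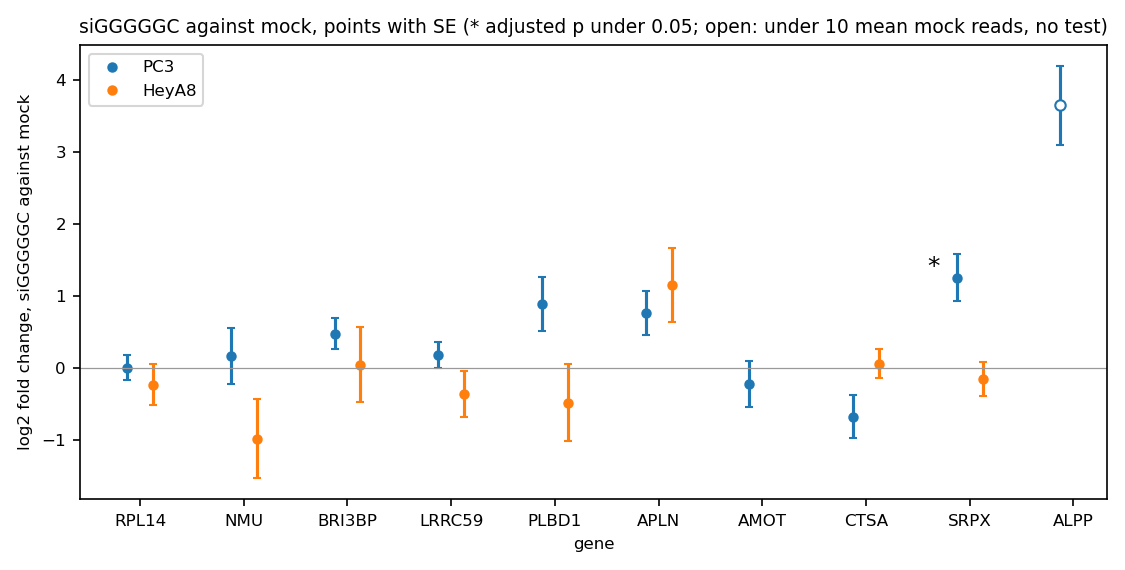
Log2 fold change of siGGGGGC against mock with its SE for each gene in PC3 (blue) and HeyA8 cells (orange); the star marks SRPX in PC3 cells, with an adjusted p of 0.0318, and the open point marks ALPP, which has no test. AMOT and ALPP were not fitted in HeyA8 cells.

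The levels before any siRNA were compared between the lines in the 4 mock libraries, normalized together. Of the 8 genes with a mean of at least 10 reads in both lines, 5 were higher in PC3 cells, beside 38.7% of all genes, and 2 were lower, beside 36.3%. RPL14 had 502 and 503 CPM in the PC3 libraries, 868 and 936 in the HeyA8 libraries, a log2 difference (PC3 minus HeyA8) of -0.84 ± 0.123 (SE, adjusted p = 4.72e-07, edgeR). SRPX differed the most in that direction, with 3.91 and 5.46 CPM against 26 and 23.9 (-2.42 ± 0.179, adjusted p = 4.2e-13). Both genes were lower in both PC3 libraries than in either HeyA8 library, and the share of all genes for which this holds was not counted.

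APLN (1.59 ± 0.152, adjusted p = 1.15e-10), NMU (1.40 ± 0.24, adjusted p = 6.53e-06), BRI3BP (0.64 ± 0.186, adjusted p = 0.00281), CTSA (0.60 ± 0.103, adjusted p = 6.5e-06) and LRRC59 (0.57 ± 0.12, adjusted p = 0.000106) were higher in PC3 cells. AMOT had 3.48 and 5.26 CPM in PC3 cells and 0 reads in HeyA8 cells, so it was at least 35.2-fold higher when 3 reads per library are taken as the limit of a count of 0. It went through the filter only by its PC3 reads and stands without a test. PLBD1 did not pass (0.90 ± 0.529, adjusted p = 0.122), and ALPP was not tested. With all 16 libraries in the fit, BRI3BP (adjusted p = 0.18), LRRC59 (adjusted p = 0.0942) and CTSA (adjusted p = 0.0814) no longer passed.

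The genes most like RPL14 over the 16 libraries, by Pearson correlation of log2 CPM centred within each line among 8347 genes with a mean of at least 10 CPM in each line, were LRRC59 (r = 0.9959), ICMT (r = 0.9954), MESDC2 (r = 0.9936), PRKCSH (r = 0.9924) and ARFGAP2 (r = 0.9898). ICMT is an ER methyltransferase of prenylated proteins, MESDC2 a chaperone of lipoprotein receptors, PRKCSH the beta subunit of glucosidase II, and ARFGAP2 a regulator of COPI vesicles. The likeness describes the pattern of the 4 conditions over both lines, since the 4 siCAG libraries are the low ones in each. LRRC59 is on the list and the others are not. In the coding sequence MESDC2 holds 5 CTG units in a row and a run of 8 leucines. ICMT and PRKCSH hold 4 units each, and ARFGAP2 holds only 1. In PC3 cells the log2 fold changes of siCAG against siNT1 were -3.43 for ICMT, -3.21 for MESDC2, -3.81 for PRKCSH and -1.73 for ARFGAP2. CTSA and APLN, the other genes of the list with such a mean, had r = 0.9633 and 0.9562.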

How the data were processed

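The members of the gene list and the other lists were chosen with earlier results of these data known. The authors trimmed the reads (Trimmomatic), aligned them to hg38 and counted reads on exons per gene with htseq; the submitters' processing notes name STAR and HTSeq. The deposited values are whole-number counts for 26485 gene symbols, with a deposited gene length used only for CPM per kb. The table held 0 columns that belong to no sample. Strand setting was not given in the sources used here.

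Within a line, genes were filtered by filterByExpr, scaled by TMM and fitted by edgeR 4.0.16 (R 4.3.3) quasi-likelihood with siRNA and time as terms over 8 libraries, or line and time over the 4 mock libraries. A call means a p adjusted by Benjamini-Hochberg over all genes tested of under 0.05. The fits over the 8 libraries of a line were first run on simulated data, with siGGGGGC against mock as the contrast. The fits of the 4 mock libraries and of all 16 libraries were not. SE is the log2 fold change divided by the root of F. Single time points used 0.5 added reads. Counting intervals are exact (Clopper-Pearson, 95%) and cover counting error only.

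Runs were counted in 1 GENCODE v44 transcript per gene (MANE Select where present): 18030 symbols matched directly, 975 through an older symbol and 7480 matched no protein-coding transcript. The longest uninterrupted run of CTG, or of CAG, was sought on the mRNA strand.

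Genes named beside the 10 are their relatives, the longest leucine, alanine and glutamine runs, the extreme ribosomal proteins, the 5 genes most like RPL14, and line markers; exceptions are stated. Alternatives were RLE, 2 other filters, DESeq2 1.42.0, no time term, the 4 libraries of the compared conditions alone, another control, single time points, other run lengths and each library left out. Fits without the siGGGGGC or siCAG libraries, CTG runs in 3′ UTRs and leave-one-out fits of the mock libraries without a term for time were added after the data were seen.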

Additional observations from a re-analysis of the deposited data

Results flagged for a closer look

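For 5 of the 8 genes fitted in both lines the siGGGGGC change against mock went in opposite directions in the lines at both time points. The share of all genes that did so was not counted, so this number does not set the genes apart, and some of the values lie near 0. The difference itself was given by an interaction term in a fit of all 16 libraries (edgeR, PC3 minus HeyA8, 0 of 15887 genes called, 1507 at an unadjusted p under 0.05). SRPX differed by 1.40 (unadjusted p = 0.00655, adjusted p = 0.322), with log2 ratios of 1.22 and 1.29 (24 h and 48 h) in PC3 cells, whereas HeyA8 cells had -0.06 and -0.26. PLBD1 differed by 1.35 (adjusted p = 0.531), with 0.76 and 0.99 in PC3 cells, whereas HeyA8 cells had -0.51 and -0.48, on 8 to 79 reads per library. NMU differed by 1.12 (adjusted p = 0.681), with 0.25 and 0.10 against -0.38 and -1.53. CTSA differed by -0.74 (adjusted p = 0.622), with -0.22 and -1.28 against 0.10 and 0.02. LRRC59 differed by 0.52 (adjusted p = 0.768), with 0.20 and 0.16 against -0.08 and -0.62. None of these 5 differences passed the threshold.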

How the results depend on the processing

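The fall of the 10 genes under siCAG kept its direction in 250 of 251 alternative values, the exception being ALPP in PC3 cells with mock as control (0.0427). These alternatives reuse siCAG libraries that chose the genes, so the direction follows from the choice and the count supports nothing. The median log2 fold change over the genes was -3.37 in PC3 cells (-3.86 to -3.17 with 1 library left out) and -4.70 in HeyA8 cells (-5.92 without siCAG at 24 h, -4.08 without siCAG at 48 h, the ends of its range). For siGGGGGC against mock in PC3 cells, ALPP turned to -0.60 with siNT1 as control. The genes called under siCAG numbered 182 in PC3 cells (DESeq2 572, 4 libraries alone 2346, without siGGGGGC libraries 339, mock as control 391, 30 to 125 with 1 library left out) and 1083 in HeyA8 cells (2657, 580 and 266 in the first 3 of these, 42 to 4690 with 1 left out). Leaving out either siCAG library of HeyA8 cells gave 4520 and 4690, and either siNT1 library 54 and 42. Under siGGGGGC against mock, 3200 genes were called in PC3 cells (siNT1 as control 1463, 0 to 4493 with 1 library left out). The count was 0 without mock at 48 h and 851 without mock at 24 h. In HeyA8 cells 0 genes were called (DESeq2 221, 4 libraries alone 381, without siCAG libraries 208, and 0 to 0 with 1 left out). Of the genes of the list tested in PC3 cells, 1, SRPX, was called. With ALPP, which stands without a test, the number was 2 (4 libraries alone 4, siNT1 as control 1, range 0 to 4). These numbers carry no test where ALPP is among them. The value with siNT1 as control carries none either, because the siNT1 libraries entered the choice of the genes. Between the mock cells 5 of the genes were called higher in PC3 cells and 2 lower, beside 38.7% and 36.3% of all genes. AMOT is left out of these counts because it had no test. With all 16 libraries in the fit BRI3BP, LRRC59 and CTSA no longer passed. Without PC3 mock at 24 h BRI3BP moved to 0.49. The median of genes outside the list with leucine runs was -0.82 in PC3 cells (no filter -0.50, at least 1 CPM -1.06, mock as control -0.61, 48 h alone -1.08, at least 6 leucines -0.51, at least 8 -1.25, -1.04 to -0.73 with 1 library left out) and -1.24 in HeyA8 cells (no filter -0.49, mock as control -0.87, 24 h alone -0.99, at least 6 leucines -0.66, -1.24 to -1.01 with 1 left out). With CTG runs it was -1.68 in PC3 cells (at least 5 units -1.27, -1.87 to -1.51 with 1 left out) and -1.99 in HeyA8 cells (no filter -1.61, 24 h alone -1.74, at least 5 units -1.30, with 3′ UTRs -1.69, -2.12 to -1.77 with 1 left out). Low filters change which genes enter these medians. The cause of the other shifts was not tested. No paired analysis was possible because the labels number no replicates; the time point is a term of the fit.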
